A study of Mus musculus with 12 samples.

Results

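The genes described here are 42 type I interferon-stimulated genes measured in mouse lung after irradiation. They were chosen by symbol, as genes known to be induced by type I interferon, and with earlier results of these data known. All 42 were among the 23238 gene symbols of the files and all 42 passed the expression filter, which left 16484 genes in the tests. RNA was sequenced from 12 samples of mouse lung tissue in 4 groups of 3, an unirradiated group (NoIR) and groups taken 8, 11 and 14 days after irradiation (IR_8d, IR_11d and IR_14d). Tissue of the irradiated groups was taken from irradiated areas alone. The dose, the strain, the age of the mice and the part of the lung used for the unirradiated group are not stated in the labels used here. All groups were otherwise labelled only as lung, and no genotype or other treatment is named. Nothing in the labels ties a replicate number to an animal, so every p-value measures only how these samples spread, and that spread may be technical.

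Type I interferons, the interferon-alpha proteins and interferon-beta, bind a receptor made of IFNAR1 and IFNAR2, which acts through the kinases JAK1 and TYK2. These phosphorylate STAT proteins, STAT2 among them, and STAT2 enters the complex ISGF3 with IRF9, which binds the interferon-stimulated response element in the promoters of target genes. The targets include antiviral effectors (Ifit, Oas, Mx), regulators that amplify the response (Irf7, Irf9, Stat2) and brakes on it (Usp18). Interferon-lambda uses the same complex, and interferon-gamma acts through its own receptor on an overlapping set of genes.

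The promoters of 13 of the 34 members that have a RefSeq window (GRCm38.p6) held the core of that element. Windows run from 250 bases before to 50 bases after the start of transcription, and Oas2, Mx1, Mx2, Parp9, Parp14, Usp18, Ifi27l2a and Rtp4 have no entry. The core searched was GAAA, any 2 bases and GAAA again, on either strand, so that a match on the opposite strand reads TTTC, 2 bases and TTTC. Overlapping matches were counted singly, and no other motif was searched. It was found for 38.2% of these members and for 3.99% of all 27025 symbols with a window. Among the 12227 tested symbols with a window the share was 3.77%. The 13 members were Ifit1, Ifit3, Isg15, Oas1a, Oas3, Rsad2, Slfn5, Slfn8, Stat2, Bst2, Trim30a, Eif2ak2 and Ifitm3. A match is a description of these letters and not a site shown to be bound. The stretches below are shown because they belong to members of the Ifit, Oas and Slfn families, which the results compare, and to Isg15 and Stat2, described by library below. Each reads 5′ to 3′ on the strand of its gene, lies wholly before the RefSeq start of transcription, and has the matches in capitals. That of Slfn5 lies inside the gene as GENCODE M21 annotates it, since the GENCODE start is upstream of the RefSeq one.
Ifit1, chr19:34640765-34640833, plus strand: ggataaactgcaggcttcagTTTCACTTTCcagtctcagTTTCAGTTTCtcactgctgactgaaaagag
Ifit3, chr19:34583353-34583436, plus strand: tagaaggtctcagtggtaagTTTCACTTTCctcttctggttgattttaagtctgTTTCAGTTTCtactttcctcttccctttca
Oas1a, chr5:120907526-120907565, minus strand: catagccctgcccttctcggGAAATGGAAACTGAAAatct
Oas3, chr5:120777705-120777754, minus strand: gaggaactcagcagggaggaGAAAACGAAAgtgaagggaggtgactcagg
Slfn8, chr11:83020829-83020878, minus strand: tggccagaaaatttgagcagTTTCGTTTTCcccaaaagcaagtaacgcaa
Slfn5, chr11:82951927-82951976, plus strand: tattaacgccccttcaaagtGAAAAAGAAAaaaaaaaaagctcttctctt
Isg15, chr4:156200855-156200916, minus strand: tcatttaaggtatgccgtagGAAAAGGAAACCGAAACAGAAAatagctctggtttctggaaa
Stat2, chr10:128270256-128270305, plus strand: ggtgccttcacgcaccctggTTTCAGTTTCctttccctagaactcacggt
Ifit1 and Ifit3 carried 2 matches each, 9 bases apart in Ifit1 and 24 bases apart in Ifit3, and in Isg15 3 overlapping matches formed a single run. The match of Slfn5 continued into a run of adenines.

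Most of the 42 genes were higher in irradiated lung at every time. Relative to unirradiated lung 37 rose and 1, Slfn5, fell at 8 d, 40 rose and none fell at 11 d, and 35 rose and Slfn5 fell at 14 d (edgeR quasi-likelihood test, n = 3 per group, Benjamini-Hochberg adjusted p below 0.05 over all genes tested). Over all genes tested 13% were higher and 10.6% lower at 8 d, 19.4% higher and 17.8% lower at 11 d, and 20% higher and 18.9% lower at 14 d. The median log2 change of the members was 1.18 at 8 d, 1.54 at 11 d and 1.08 at 14 d, beside 0.01, -0.01 and 0.01 over all genes. The 3 comparisons share the unirradiated samples, so their agreement is not independent. In 33 members the rise was called at all 3 times, as in 9.92% of all genes, and 41 passed the joint test over all 4 groups, as 39.2% of all genes did. Trim25 passed none of these tests.

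Rises of at least 2-fold were called for 27 members at 8 d, 30 at 11 d and 22 at 14 d, against 6.96%, 9.63% and 11.2% of all genes. Rises of at least 4-fold were called for 13, 16 and 9 members, against 2.45%, 3.83% and 4.65% of all genes. At 8 d all 3 irradiated libraries lay above all 3 unirradiated ones for 38 members, as for 19.8% of all genes. The corresponding counts were 40 members at 11 d (28.2% of all genes) and 34 at 14 d (25.8%). All 14 d libraries lay below the unirradiated ones for 2 members, Slfn5 and Isg20 (25% of all genes), and all 8 d libraries for Slfn5 (18.5%). The group mean was highest at 11 d in 33 members, at 14 d in 6, at 8 d in 2 and without irradiation in 1. This count is not given for all genes. No member passed the test from 8 d to 11 d, and 11 d replicate 1 was the highest of its group in all 42 members.

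**Figure D1:**
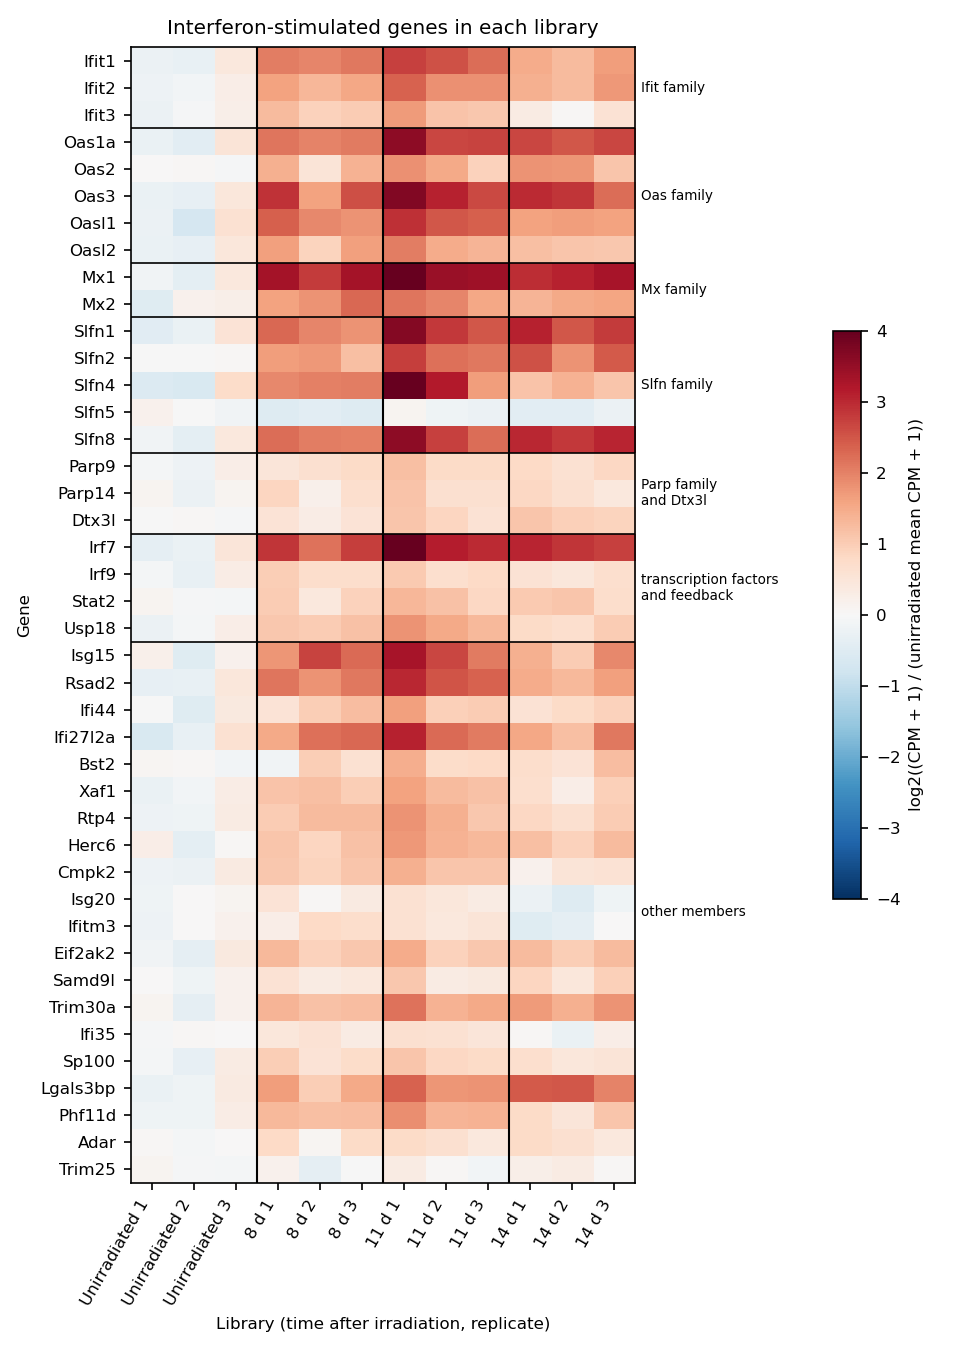
Each row is a member and each column a library, coloured by log2 of (CPM + 1) over (mean unirradiated CPM + 1). Mx1, Irf7, Oas1a, Oas3, Slfn1 and Slfn8 are among the darkest rows, Slfn5 is pale or blue, and 11 d replicate 1 is the darkest column.

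CPM are counts divided by the library size in units of 1e6 after TMM scaling, and log2 changes are edgeR's fitted values with their standard error (SE). The libraries held between 19624554 and 27765751 counts, with 18204 to 19288 genes detected. Ribosomal precursor Rn45s took 1.71% to 6.27% of the counts and haemoglobin genes 0.253% to 1.8%. Alveolar epithelial markers summed to 33800 to 38000 CPM without irradiation and to 18400 to 19900 CPM at 14 d, with no marker at 0 counts, so the libraries hold lung epithelial RNA as labelled. In bulk tissue, fewer cells of a type and less RNA per cell cannot be told apart.

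The signalling members showed 1 large and 3 moderate rises. Irf7, the transcription factor that amplifies interferon production and is itself interferon-induced, stood at 10.8, 11.4 and 19.8 CPM without irradiation, 108, 66.6 and 102 at 8 d, 243, 131 and 117 at 11 d and 123, 107 and 99.7 at 14 d. The irradiated libraries at all 3 times lay above the unirradiated range, and 11 d replicate 1 was far above the rest. Its log2 change was 2.71 (SE 0.30, adjusted p = 3.25e-05) at 8 d, 3.54 (SE 0.31, adjusted p = 2.11e-06) at 11 d and 2.97 (SE 0.30, adjusted p = 3.45e-06) at 14 d.

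Irf9, the DNA-binding part of ISGF3, stood at 52.8, 45.4 and 69.3 CPM without irradiation, 112, 90.6 and 91.6 at 8 d, 116, 89.8 and 97.1 at 11 d and 84.5, 76.7 and 89.1 at 14 d. All irradiated libraries lay above all unirradiated ones, and Irf9 rose by 0.81 (SE 0.16, adjusted p = 0.00218), 0.86 (SE 0.16, adjusted p = 0.000859) and 0.58 (SE 0.16, adjusted p = 0.00997). The call at 14 d was lost without unirradiated replicate 2 (log2 0.45, adjusted p = 0.0552). Stat2, the partner that is specific to type I and type III signalling, stood at 38.2, 33.5 and 33.4 CPM without irradiation, 71.1, 47 and 67 at 8 d, 89.3, 79.8 and 63.6 at 11 d and 73.4, 76.1 and 57.9 at 14 d. All irradiated libraries were above all unirradiated ones, with log2 changes of 0.82 at 8 d, 1.15 at 11 d and 0.98 at 14 d. Usp18, the protease that removes ISG15 from proteins and blocks IFNAR2, stood at 20.9, 23 and 29.6 CPM without irradiation, 53.1, 50.4 and 56.8 at 8 d, 88.2, 71.5 and 61.6 at 11 d and 42.8, 39.6 and 51.1 at 14 d. It rose at each time, by 1.12 (SE 0.16, adjusted p = 0.000249) at 8 d, 1.59 (SE 0.17, adjusted p = 7.64e-06) at 11 d and 0.86 (SE 0.16, adjusted p = 0.000758) at 14 d on the log2 scale, and its 14 d libraries lay below all 11 d libraries.

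All 5 members of the Oas family, enzymes and relatives that sense double-stranded RNA and make the second messenger that activates RNase L, rose at every time. The family median log2 change was 2.20 at 8 d, 3.20 at 11 d and 2.14 at 14 d. Oas1a (chromosome 5, 120896256 to 120907521, minus strand, mm10) stood at 6.25, 5.5 and 11.3 CPM without irradiation, 37, 33.4 and 35.5 at 8 d, 103, 54 and 55.6 at 11 d and 54.6, 47.8 and 54.3 at 14 d. No irradiated library came near the unirradiated range, and the log2 change was 2.20 (SE 0.27, adjusted p = 7.21e-05), 3.20 (SE 0.28, adjusted p = 2.15e-06) and 2.76 (SE 0.28, adjusted p = 2.99e-06) at the 3 times. Oas3 (chromosome 5, 120753098 to 120777661, minus strand), the longest enzyme of the family, stood at 1.17, 1.07 and 2.53 CPM without irradiation, 18.2, 6.94 and 14.5 at 8 d, 32.9, 20.9 and 15.2 at 11 d and 19.3, 17.6 and 11.2 at 14 d. It had the largest change of the family, 3.05 (SE 0.42, adjusted p = 0.000167), 3.85 (SE 0.43, adjusted p = 1.24e-05) and 3.33 (SE 0.42, adjusted p = 2.41e-05), with wide spread within each irradiated group.

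Oas2 stood at 3.28, 3.39 and 3.11 CPM without irradiation, 10.4, 5.04 and 10.1 at 8 d, 14.1, 11.2 and 7.05 at 11 d and 13.8, 13.4 and 8.1 at 14 d. Its unirradiated libraries were nearly equal, and the changes were 1.39 at 8 d, 1.73 at 11 d and 1.85 at 14 d on the log2 scale. Oasl1, a catalytically inactive relative that restrains translation of Irf7, stood at 1.21, 0.627 and 2.93 CPM without irradiation, 12.7, 8.83 and 8 at 8 d, 18.8, 13.4 and 12.6 at 11 d and 6.97, 7.17 and 6.89 at 14 d. It rose by 2.62 (SE 0.38, adjusted p = 0.000219), 3.23 (SE 0.38, adjusted p = 1.94e-05) and 2.14 (SE 0.38, adjusted p = 0.000409), and its 14 d libraries were nearly equal and lay below all those of 8 and 11 d. Oasl2 stood at 31.7, 30.4 and 52.8 CPM without irradiation, 121, 71.6 and 121 at 8 d, 162, 109 and 99.5 at 11 d and 89.8, 83.4 and 82.3 at 14 d. Its log2 changes were 1.45 at 8 d, 1.69 at 11 d and 1.15 at 14 d, and no other member of the family had a smaller one at 11 d or 14 d. Of the words of 50 bases in Oas1a transcripts 57.6% also occur in another gene, mainly Oas1g, so reads could be split between them by the authors' counting. Oas1g itself rose by 2.45 at 8 d, 3.48 at 11 d and 3.02 at 14 d.

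Both Mx genes, of a family of dynamin-like GTPases that block viral replication, rose from low levels. GENCODE M21 annotates Mx2 as a polymorphic pseudogene, and the strain is not stated. Mx1 (chromosome 16, 97447035 to 97462907, minus strand) stood at 1.88, 1.44 and 3.29 CPM without irradiation, 31.3, 21 and 30.8 at 8 d, 53, 33.8 and 32.5 at 11 d and 23.6, 26.1 and 30.3 at 14 d. This was the largest change among the 42 members at each time, 12.5-fold at 8 d, 18-fold at 11 d and 12-fold at 14 d, with log2 changes of 3.65 (SE 0.29, adjusted p = 2.68e-06), 4.17 (SE 0.30, adjusted p = 4.48e-07) and 3.59 (SE 0.29, adjusted p = 6.27e-07). Mx2 stood at 1.02, 2.18 and 2.31 CPM without irradiation, 7.73, 8.96 and 13 at 8 d, 11.6, 9.94 and 7.26 at 11 d and 6.34, 7.05 and 7.47 at 14 d. It rose by 2.43 (SE 0.29, adjusted p = 5.49e-05), 2.38 (SE 0.29, adjusted p = 2.56e-05) and 1.92 (SE 0.29, adjusted p = 0.000109). Mx1 had its highest mean at 11 d, while the Mx2 means at 8 d and 11 d, 9.9 ± 2.76 and 9.61 ± 2.2 CPM (SD, n = 3), overlapped.

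All 3 Ifit genes, whose proteins bind foreign RNA ends and block its translation, rose at 8 d and 11 d, and Ifit1 and Ifit2 also at 14 d. Family medians of the log2 change were 1.52, 2.06 and 1.51. The family lies within 99.3 kb of chromosome 19. Ifit1 (34640871 to 34650009, plus strand) stood at 30.2, 28.8 and 47.5 CPM without irradiation, 151, 139 and 158 at 8 d, 244, 213 and 169 at 11 d and 102, 86.3 and 116 at 14 d. Its 4 groups did not overlap with one another in any pair, and the log2 changes from unirradiated lung were 2.07 (SE 0.20, adjusted p = 9.84e-06), 2.55 (SE 0.20, adjusted p = 9.73e-07) and 1.51 (SE 0.19, adjusted p = 2.59e-05).

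Ifit2 stood at 31.7, 33.8 and 43.8 CPM without irradiation, 113, 92.4 and 108 at 8 d, 192, 132 and 131 at 11 d and 99.8, 88.2 and 123 at 14 d. Its log2 changes were 1.52 (SE 0.18, adjusted p = 5.81e-05), 2.06 (SE 0.19, adjusted p = 2.57e-06) and 1.51 (SE 0.18, adjusted p = 1.55e-05), with overlapping libraries at 8 d and 14 d. Ifit3 stood at 135, 154 and 188 CPM without irradiation, 381, 301 and 325 at 8 d, 515, 350 and 334 at 11 d and 202, 163 and 238 at 14 d. Ifit3 rose at 8 d and 11 d, by 1.08 (SE 0.19, adjusted p = 0.00113) and 1.33 (SE 0.19, adjusted p = 0.000121), while its 14 d libraries overlapped the unirradiated ones, with a log2 difference of 0.34 (SE 0.19, adjusted p = 0.186). Of the 50-base words of Ifit3 51.2% also occur in another gene, mainly the neighbouring Ifit3b, whose own log2 changes were 0.88 at 8 d, 1.07 at 11 d and 0.15 at 14 d, where it did not pass the test (adjusted p = 0.534).

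The Slfn family, regulators of lymphocyte and myeloid cell growth that in part cut transfer RNA, held both some of the largest rises and the only falls. Slfn1, Slfn2, Slfn4 and Slfn8 rose at every time and Slfn5 fell at 8 d and 14 d, although all 5 lie within 239 kb of chromosome 11. Family medians of the log2 change were 2.25, 3.17 and 2.32. Slfn1 stood at 3.05, 3.58 and 7.05 CPM without irradiation, 26.4, 20.4 and 18.4 at 8 d, 69.6, 38.9 and 30.4 at 11 d and 46.3, 30.3 and 37.7 at 14 d. It rose by 2.25 (SE 0.34, adjusted p = 0.000315), 3.34 (SE 0.35, adjusted p = 7.46e-06) and 3.06 (SE 0.34, adjusted p = 8.06e-06), and its irradiated libraries were all above the unirradiated ones. Slfn2 stood at 45.9, 45.9 and 47.9 CPM without irradiation, 151, 159 and 108 at 8 d, 322, 219 and 203 at 11 d and 275, 164 and 259 at 14 d. Its unirradiated libraries lay within a narrow range, and it rose by 1.58 (SE 0.22, adjusted p = 0.000158), 2.41 (SE 0.22, adjusted p = 3.31e-06) and 2.32 (SE 0.22, adjusted p = 2.18e-06). Slfn8 (chromosome 11, 83002158 to 83020810, minus strand) stood at 4.9, 3.95 and 7.73 CPM without irradiation, 29.7, 25.9 and 25.6 at 8 d, 76.8, 42.5 and 29.8 at 11 d and 51.6, 45.3 and 53 at 14 d. It rose by 2.29 (SE 0.30, adjusted p = 0.000122), 3.17 (SE 0.31, adjusted p = 4.97e-06) and 3.17 (SE 0.31, adjusted p = 2.49e-06), with equal group means at 11 d and 14 d within the SD.

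Slfn4, a myeloid member of the family, stood at 0.829, 0.738 and 3.4 CPM without irradiation, 9.09, 9.64 and 10 at 8 d, 43.8, 23 and 7.52 at 11 d and 4.86, 5.96 and 4.67 at 14 d. The 11 d libraries spread from 7.52 to 43.8 CPM, and the lowest of them lay below the 8 d libraries. It rose by 2.52 (SE 0.58, adjusted p = 0.00579), 3.90 (SE 0.59, adjusted p = 0.000151) and 1.63 (SE 0.58, adjusted p = 0.0375). The call at 14 d was lost with DESeq2 (adjusted p = 0.0532), with limma-voom (adjusted p = 0.0606), and without unirradiated replicate 1 or 2 or any single 14 d library (adjusted p 0.0554 to 0.141). Slfn5 (chromosome 11, 82951349 to 82964840, plus strand) stood at 287, 252 and 231 CPM without irradiation, 181, 191 and 179 at 8 d, 277, 226 and 217 at 11 d and 191, 193 and 220 at 14 d. Its 8 d and 14 d libraries lay below all unirradiated libraries and its 11 d libraries overlapped them. It fell by 0.48 at 8 d on the log2 scale (SE 0.13, adjusted p = 0.0147) and by 0.35 at 14 d (SE 0.13, adjusted p = 0.0445), and at 11 d the log2 difference was -0.10 (SE 0.13, adjusted p = 0.592). The call at 8 d was lost without unirradiated replicate 1 (log2 -0.39, adjusted p = 0.0793). At 14 d it was lost with median-of-ratios scaling (adjusted p = 0.0512), no expression filter (0.0591), a fit of only the groups compared (0.0573), or without any single library of unirradiated replicates 1 and 2, 8 d replicate 3, 11 d replicates 2 and 3 and 14 d replicates 1 and 2 (adjusted p 0.0506 to 0.182). An antisense gene, Slfn5os, overlaps 559 exon bases of Slfn5, and no source used here gives the strand setting of the counting. Outside the members Slfn9, Slfn3 and the pseudogene Slfn10-ps rose at every time, Slfn10-ps by 2.15 at 8 d, 3.38 at 11 d and 3.32 at 14 d, and Slfn14, near the detection limit with a mean of 0.408 ± 0.142 CPM without irradiation, did not pass the test.

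Parp9, Parp14 and Dtx3l rose in every comparison with unirradiated lung, by 2.01-fold at most. Parp9 and Parp14 are ADP-ribosyltransferase family members that bear macrodomains, and Dtx3l is the ubiquitin ligase partner of Parp9. Family medians of the log2 change were 0.61 at 8 d, 0.90 at 11 d and 0.76 at 14 d. Parp9 stood at 48.7, 44.9 and 62.3 CPM without irradiation, 73.2, 81.6 and 88.9 at 8 d, 120, 89.1 and 89.4 at 11 d and 91.1, 79 and 93.7 at 14 d. It rose by 0.64 (SE 0.16, adjusted p = 0.00812), 0.94 (SE 0.16, adjusted p = 0.000339) and 0.76 (SE 0.16, adjusted p = 0.00134), with no overlap between irradiated and unirradiated libraries. Parp14 stood at 101, 79.2 and 102 CPM without irradiation, 172, 109 and 149 at 8 d, 207, 148 and 146 at 11 d and 168, 147 and 127 at 14 d. It rose by 0.61 (SE 0.19, adjusted p = 0.0301), 0.83 (SE 0.19, adjusted p = 0.00339) and 0.65 (SE 0.19, adjusted p = 0.0134). Its 8 d call was lost without unirradiated replicate 1 or 2 or 8 d replicate 1 or 3 (adjusted p 0.0615 to 0.125), and its 14 d call without unirradiated replicate 2 (0.0668) or 14 d replicate 1 (0.0653).

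Dtx3l stood at 31.3, 32.3 and 30.8 CPM without irradiation, 46.4, 39.3 and 46.1 at 8 d, 69.8, 58.5 and 47.8 at 11 d and 68.5, 61.9 and 59.7 at 14 d. Unlike most members it had its highest mean at 14 d, and it rose by 0.48 (SE 0.14, adjusted p = 0.0217), 0.90 (SE 0.14, adjusted p = 0.00019) and 1.01 (SE 0.14, adjusted p = 4.87e-05). The 8 d call was lost without any single unirradiated library or 8 d replicate 1 or 3 (adjusted p 0.0544 to 0.0696). Parp9 and Dtx3l are transcribed in opposite directions and share 458 exon bases on chromosome 16, so some reads cannot be assigned between them unless strand was used. Outside the members 10 genes with a Parp symbol were tested. Of these 4 rose and 1 fell at 8 d, and 6 rose and 1 fell at 11 d. At 14 d 5 rose and 1 fell, and log2 differences ran from -0.65 for Parp16 to 0.97 for Parp8. The gene of these 10 that fell was Parp6 at each time (-0.42 at 8 d, -0.39 at 11 d and -0.46 at 14 d). Parp1, Parp11 and Parp12 rose at each time. Tiparp and Zc3hav1, also listed as family paralogues, were not among the 10. Over the paralogues of all families 22 genes were tested. Of these 11 rose and 2 fell at 8 d, 14 rose and 1 fell at 11 d, and 12 rose and 1 fell at 14 d. The shares that rose were 50%, 63.6% and 54.5%, against 13%, 19.4% and 20% of all genes. The shares that fell were 9.09%, 4.55% and 4.55%, against 10.6%, 17.8% and 18.9% of all genes.

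**Figure D2:**
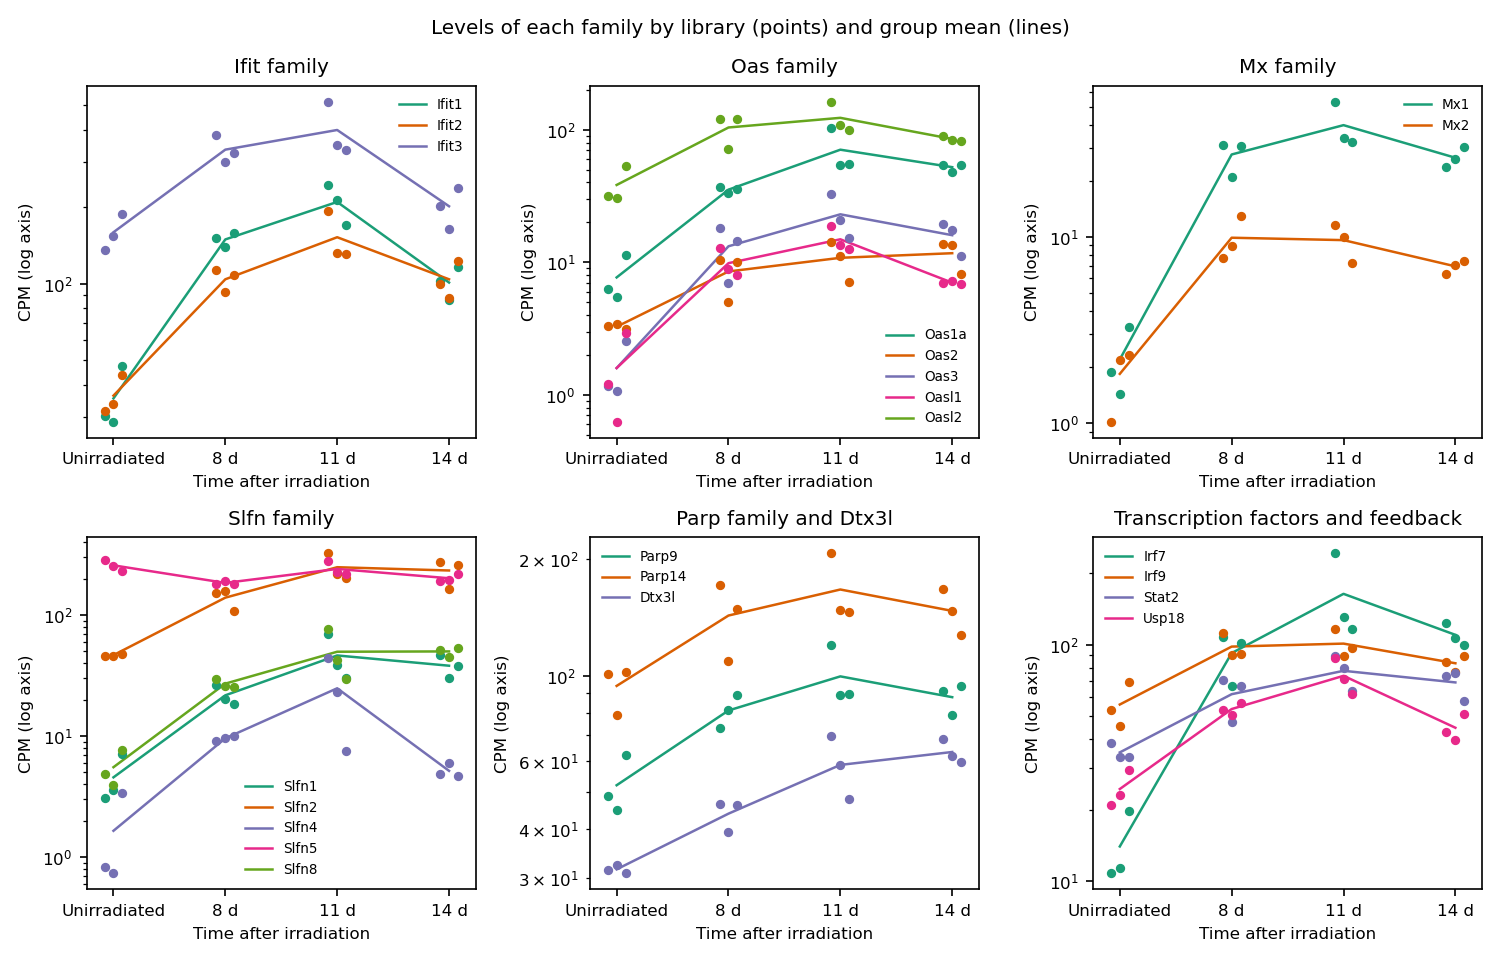
CPM on a log axis for each family, with points for libraries and lines through group means. Ifit, Oas and Mx1 lines climb to 8 d and 11 d and most turn down at 14 d, while the Mx2 line is nearly level from 8 d to 11 d. Slfn5 runs level or lower, and the Parp panel covers a narrower range.

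Ordered by the median log2 change at 11 d, the families ran Mx (3.28), Oas (3.20), Slfn (3.17), Ifit (2.06) and Parp with Dtx3l (0.90). The families hold 2 to 5 genes, and the difference between families was not tested. Within families the range at 11 d was 2.38 to 4.17 for Mx, 1.69 to 3.85 for Oas, 1.33 to 2.55 for Ifit, 0.83 to 0.94 for Parp with Dtx3l and -0.10 to 3.90 for Slfn, so the ranges of Mx, Oas, Ifit and Slfn overlapped and that of Slfn held the Parp range.

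**Figure D3:**
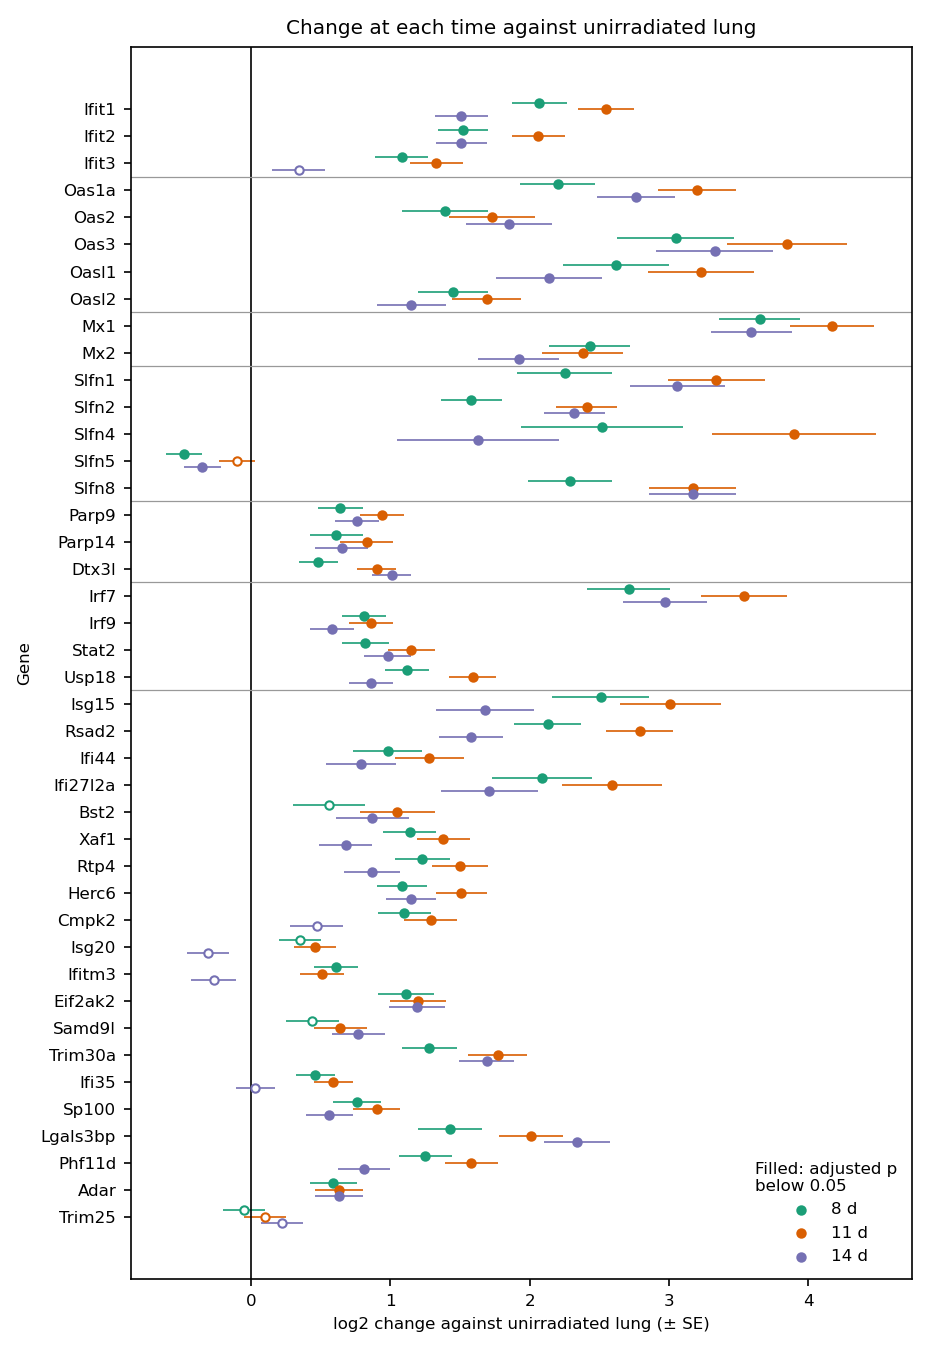
log2 change of every member against unirradiated lung at 8, 11 and 14 d, with SE, where filled points passed the test. Mx1 stands furthest to the right, with 3.65, 4.17 and 3.59, and Slfn5 lies left of zero.

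Among the other 20 members 16 rose at 8 d, 19 at 11 d and 15 at 14 d, and none fell. Rsad2, the radical SAM enzyme viperin that makes a chain-terminating nucleotide, stood at 6.97, 7.12 and 12.7 CPM without irradiation, 42.6, 33.4 and 41.5 at 8 d, 79.9, 56.3 and 49.8 at 11 d and 26.8, 23.6 and 30 at 14 d. It rose by 2.13 (SE 0.24, adjusted p = 3.37e-05), 2.79 (SE 0.24, adjusted p = 1.87e-06) and 1.58 (SE 0.23, adjusted p = 9.21e-05), and its 14 d libraries lay below those of 8 d and 11 d. Isg15, the ubiquitin-like modifier, stood at 5.69, 3.21 and 5.6 CPM without irradiation, 18.9, 36.7 and 27.2 at 8 d, 56.6, 36.1 and 23.7 at 11 d and 14.6, 10.9 and 20.9 at 14 d. It rose by 2.51 (SE 0.35, adjusted p = 0.000184), 3.01 (SE 0.36, adjusted p = 2.1e-05) and 1.68 (SE 0.35, adjusted p = 0.00146). Trim30a, a regulator of Toll-like receptor signalling, stood at 38.5, 27.6 and 40.4 CPM without irradiation, 92.7, 81 and 84 at 8 d, 165, 95.4 and 103 at 11 d and 118, 97.3 and 127 at 14 d. Its irradiated libraries were all above the unirradiated ones, with log2 changes of 1.28 at 8 d, 1.77 at 11 d and 1.69 at 14 d.

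Lgals3bp, a secreted galectin-binding glycoprotein, stood at 63.9, 68.5 and 98.8 CPM without irradiation, 249, 152 and 220 at 8 d, 398, 264 and 269 at 11 d and 425, 434 and 308 at 14 d. It had its highest mean at 14 d and rose by 1.43 (SE 0.23, adjusted p = 0.000529), 2.01 (SE 0.23, adjusted p = 1.83e-05) and 2.34 (SE 0.24, adjusted p = 3.29e-06). Cmpk2, the mitochondrial nucleotide kinase next to Rsad2, stood at 9, 8.82 and 13.8 CPM without irradiation, 23.5, 20.2 and 24 at 8 d, 29.9, 23.7 and 24 at 11 d and 12, 15.6 and 16.2 at 14 d. It rose at 8 d and 11 d, by 1.10 and 1.29, and at 14 d its log2 difference was 0.47 (SE 0.19, adjusted p = 0.0615), which passed the test without unirradiated replicate 3 (log2 0.72, adjusted p = 0.00629) or without 14 d replicate 1 (log2 0.59, adjusted p = 0.0397). Samd9l, a growth-restricting antiviral protein, stood at 81, 71.2 and 90.6 CPM without irradiation, 120, 102 and 108 at 8 d, 171, 101 and 107 at 11 d and 146, 112 and 157 at 14 d. The log2 difference at 8 d was 0.44 (SE 0.19, adjusted p = 0.117), and it rose by 0.64 (SE 0.19, adjusted p = 0.0172) at 11 d and 0.77 (SE 0.19, adjusted p = 0.00509) at 14 d. Its 8 d difference passed when only those groups were fitted (adjusted p = 0.0456, or 0.0459 with replicate number as a block in that fit) and without 11 d replicate 1 (adjusted p = 0.0432), and the 11 d call was lost without unirradiated replicate 1 or 2 or 11 d replicate 1 (adjusted p 0.0501 to 0.117), the last of which brought the log2 change to 0.36.

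Ifitm3, Isg20 and Ifi35 were also among the members that did not pass at 14 d. Ifitm3, which blocks fusion of viruses with endosomes, stood at 132, 154 and 170 CPM without irradiation, 183, 265 and 246 at 8 d, 230, 202 and 220 at 11 d and 108, 119 and 152 at 14 d. It rose by 0.61 (SE 0.16, adjusted p = 0.0153) at 8 d and 0.51 (SE 0.16, adjusted p = 0.0235) at 11 d, and its 14 d log2 difference was -0.27 (SE 0.16, adjusted p = 0.217). The 8 d call was lost without unirradiated replicate 1 or 8 d replicate 2 or 3 (adjusted p 0.0524 to 0.0791) and the 11 d call without unirradiated replicate 1 or 2 or 11 d replicate 1 or 3 (adjusted p 0.0581 to 0.103). Isg20, a 3′ to 5′ exonuclease, stood at 55.7, 63.7 and 67.8 CPM without irradiation, 92.3, 65 and 80.8 at 8 d, 94.8, 85.2 and 77.9 at 11 d and 52.6, 43.3 and 54.8 at 14 d. Its rise passed at 11 d only, 0.46 (SE 0.15, adjusted p = 0.0242), beside 0.35 (SE 0.15, adjusted p = 0.107) at 8 d and -0.31 (SE 0.15, adjusted p = 0.112) at 14 d, where all 3 libraries lay below the unirradiated ones. The 11 d call was lost without unirradiated replicate 1 or 2 or 11 d replicate 1 or 2 (adjusted p 0.0522 to 0.103), and the 8 d difference passed without 8 d replicate 2 (adjusted p = 0.0317). Ifi35 stood at 32.3, 34.6 and 34 CPM without irradiation, 46.4, 50.4 and 42.5 at 8 d, 53.1, 52.1 and 46.9 at 11 d and 34.6, 27.8 and 40.9 at 14 d. It rose by 0.46 (SE 0.14, adjusted p = 0.0264) and 0.59 (SE 0.14, adjusted p = 0.00437) at 8 d and 11 d, and its 14 d log2 difference was 0.03 (SE 0.14, adjusted p = 0.884). The 8 d call was lost without any single unirradiated library or 8 d replicate 2 (adjusted p 0.0626 to 0.0952).

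Bst2, the tetherin that holds budding viruses at the cell surface, stood at 36.1, 35 and 31.6 CPM without irradiation, 31, 67.9 and 52.9 at 8 d, 95.5, 57.7 and 59.9 at 11 d and 56.5, 50.3 and 81.4 at 14 d. The lowest 8 d library lay below all unirradiated ones, so that the 8 d log2 difference, 0.56 (SE 0.26, adjusted p = 0.144), did not pass unless 8 d replicate 1 was left out (log2 0.82, adjusted p = 0.0247). It rose by 1.05 (SE 0.27, adjusted p = 0.00646) at 11 d and 0.87 (SE 0.26, adjusted p = 0.0169) at 14 d, the last lost without unirradiated replicate 3 (adjusted p = 0.0557) or 14 d replicate 3 (adjusted p = 0.0834). Trim25, a ubiquitin ligase that activates the RNA sensor RIG-I, stood at 99.5, 89.6 and 87.2 CPM without irradiation, 103, 72 and 91.5 at 8 d, 115, 95.2 and 85.2 at 11 d and 109, 117 and 95.2 at 14 d. Its groups overlapped at every time, with log2 differences of -0.05 (SE 0.15, adjusted p = 0.849), 0.10 (SE 0.15, adjusted p = 0.643) and 0.22 (SE 0.15, adjusted p = 0.284).

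The other members rose at all 3 times. Ifi27l2a went from 21 ± 10.4 CPM to 89.6 ± 24.2, 126 ± 49.9 and 68.9 ± 22.7 CPM (SD, n = 3), Phf11d from 54.1 ± 11.4 to 129 ± 4.49, 161 ± 34.5 and 95.1 ± 21 CPM, and Herc6, the main ligase for ISG15 in mice, from 32.7 ± 7.43 to 69.2 ± 7.74, 93 ± 14.8 and 72.7 ± 8.9 CPM. Eif2ak2, the kinase PKR that halts translation on double-stranded RNA, went from 51.5 ± 14.3 to 111 ± 14.5, 119 ± 24.5 and 117 ± 13.6 CPM, and Adar, which edits adenosine in double-stranded RNA, from 42.7 ± 2.15 to 64.3 ± 16.5, 66.2 ± 7.52 and 66.1 ± 7.72 CPM. From 8 d to 14 d the log2 differences of Eif2ak2 and Adar were 0.08 and 0.04. Xaf1 went from 37.9 ± 8 to 83.4 ± 6.18, 98.7 ± 16.9 and 60.6 ± 14.4 CPM, Rtp4 from 18.8 ± 4.37 to 44.1 ± 4.15, 53.3 ± 13.2 and 34.5 ± 4.69 CPM, Ifi44 from 20.1 ± 6.33 to 39.8 ± 9.58, 48.8 ± 13.7 and 34.8 ± 4.09 CPM, and Sp100, a nuclear body protein, from 132 ± 30.1 to 225 ± 33.9, 248 ± 31.9 and 195 ± 16.6 CPM. Adjusted p-values of single members were lost at 8 d for Adar without any single unirradiated library or 8 d replicate 1 or 3 (0.0519 to 0.0914) and for Ifi44 without unirradiated replicate 2 (0.0505). At 14 d they were lost for Ifi44 without unirradiated replicate 1 or 2 or 14 d replicate 3 (0.0571 to 0.0925), for Sp100 without unirradiated replicate 1 or 2 or 14 d replicate 1 (0.0595 to 0.085), and for Xaf1 without unirradiated replicate 1 or 14 d replicate 3 (0.057 and 0.0591).

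Between the times after irradiation no member changed by the test from 8 d to 11 d, and some fell from 11 d to 14 d. In edgeR's test 0 members passed from 8 d to 11 d, where 2.14% of all genes did (1.75% higher and 0.394% lower), with 16 members at an unadjusted p below 0.05 (15.8% of all genes), 4 called by DESeq2 (3.97% of all genes) and none by limma-voom (2.06%). The median log2 difference was 0.36 (all genes -0.01), and 40 of 42 had a higher mean at 11 d, with all 3 libraries above those of 8 d in 17 (9.57% of all genes) and below them in none (8.72% of all genes). Without 11 d replicate 1 the median of the members became 0.13. The largest differences were those of Slfn4, 1.37 (SE 0.51, adjusted p = 0.196), Slfn1, 1.09 (SE 0.31, adjusted p = 0.0907), and Oas1a, 2.01-fold (adjusted p = 0.0595).

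From 11 d to 14 d 8 members fell and none rose, where 0.983% of all genes fell and 0.813% rose. Slfn4 dropped by 2.26 on the log2 scale (SE 0.53, adjusted p = 0.0451), Rsad2 by 1.21 (SE 0.23, adjusted p = 0.0182), Ifit1 by 1.04 (SE 0.19, adjusted p = 0.0168) and Ifit3 by 0.99 (SE 0.19, adjusted p = 0.0222). Cmpk2, Isg20, Ifitm3 and Usp18 dropped by 0.82, 0.78, 0.78 and 0.73. The median log2 difference of all 42 was -0.48 (all genes -0.01), and 36 had a lower mean at 14 d. In 21 members all 14 d libraries lay below all 11 d libraries, as in 11.7% of all genes, and in none did they lie above (9.96% of all genes). Isg15, with -1.33 (SE 0.33, adjusted p = 0.0573), and Oasl1, with -1.09 (SE 0.34, adjusted p = 0.122), had larger differences than several called members and did not pass. None of the 8 calls was left without 11 d replicate 2, without 14 d replicate 1 or without 14 d replicate 2. Without 11 d replicate 1, 5 were left and the median difference became -0.23. Counts of 5 were found without unirradiated replicate 2 or 8 d replicate 3, 4 without 11 d replicate 3, and 13 with DESeq2 (3.81% of all genes). Slfn4 also lost its call with limma-voom (adjusted p = 0.0761) and with each library left out except unirradiated replicate 3, 8 d replicate 2 and 11 d replicate 3 (adjusted p 0.0531 to 0.202). Cmpk2 lost its call with library size alone (adjusted p = 0.0514) and with each library left out except unirradiated replicate 3 and 8 d replicates 1 and 2 (0.0513 to 0.213). Usp18 lost its call when only those groups were fitted (adjusted p = 0.052) and without unirradiated replicate 2, 8 d replicate 3, any 11 d library or 14 d replicate 1 or 2 (adjusted p 0.0571 to 0.175). Isg20 and Ifitm3 also lost theirs without 11 d replicate 3 (adjusted p = 0.0581 and 0.122).

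From 8 d to 14 d 4 members rose and 4 fell, where 8.1% of all genes rose and 7.29% fell, so that the shares of the members, 9.52% in each direction, were near those of all genes. Lgals3bp rose by 0.91 (SE 0.23, adjusted p = 0.0144), Slfn8 by 0.89 (SE 0.28, adjusted p = 0.0483), Slfn2 by 0.74 (SE 0.21, adjusted p = 0.0306) and Dtx3l by 0.53 (SE 0.14, adjusted p = 0.0186). Ifitm3 dropped by 0.87 (SE 0.16, adjusted p = 0.00254), Ifit3 by 0.74 (SE 0.19, adjusted p = 0.018), Isg20 by 0.66 (SE 0.15, adjusted p = 0.0079) and Cmpk2 by 0.63 (SE 0.19, adjusted p = 0.0348). The median log2 difference was -0.03 and that of all genes -0.02. In the Ifit family the log2 differences were -0.56 for Ifit1 (adjusted p = 0.0636), -0.01 for Ifit2 (adjusted p = 0.975) and -0.74 for Ifit3, and only Ifit3 passed. Those of the Slfn family were mixed, with 0.81 for Slfn1, 0.74 for Slfn2, 0.89 for Slfn8, 0.13 for Slfn5 and -0.89 for Slfn4. The contrast between families was not tested. Without 14 d replicate 1 only 2 calls were left, and without 8 d replicate 1, 8 d replicate 3 or 14 d replicate 2 there were 5. The Slfn8 call was lost without any single 8 d or 14 d library (adjusted p 0.0693 to 0.138), without unirradiated replicate 1 (0.061) or 11 d replicate 2 (0.0607), and with library size alone (0.0595). That of Slfn2 was lost without 8 d replicate 3 or 14 d replicate 1 or 3 (adjusted p 0.0868 to 0.14) or when only those groups were fitted (0.0729), and that of Dtx3l without 8 d replicate 2 or 14 d replicate 1 (0.0544 and 0.0899). Lgals3bp lost its call without 14 d replicate 1 (adjusted p = 0.0619), Ifit3 without 8 d replicate 1 or 14 d replicate 1 or 2 (0.0591 to 0.073), and Cmpk2 without 8 d replicate 1 or 3 or 14 d replicate 1 or 2 (0.06 to 0.159). Ifitm3 and Isg20 kept theirs with each library left out.

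**Figure D4:**
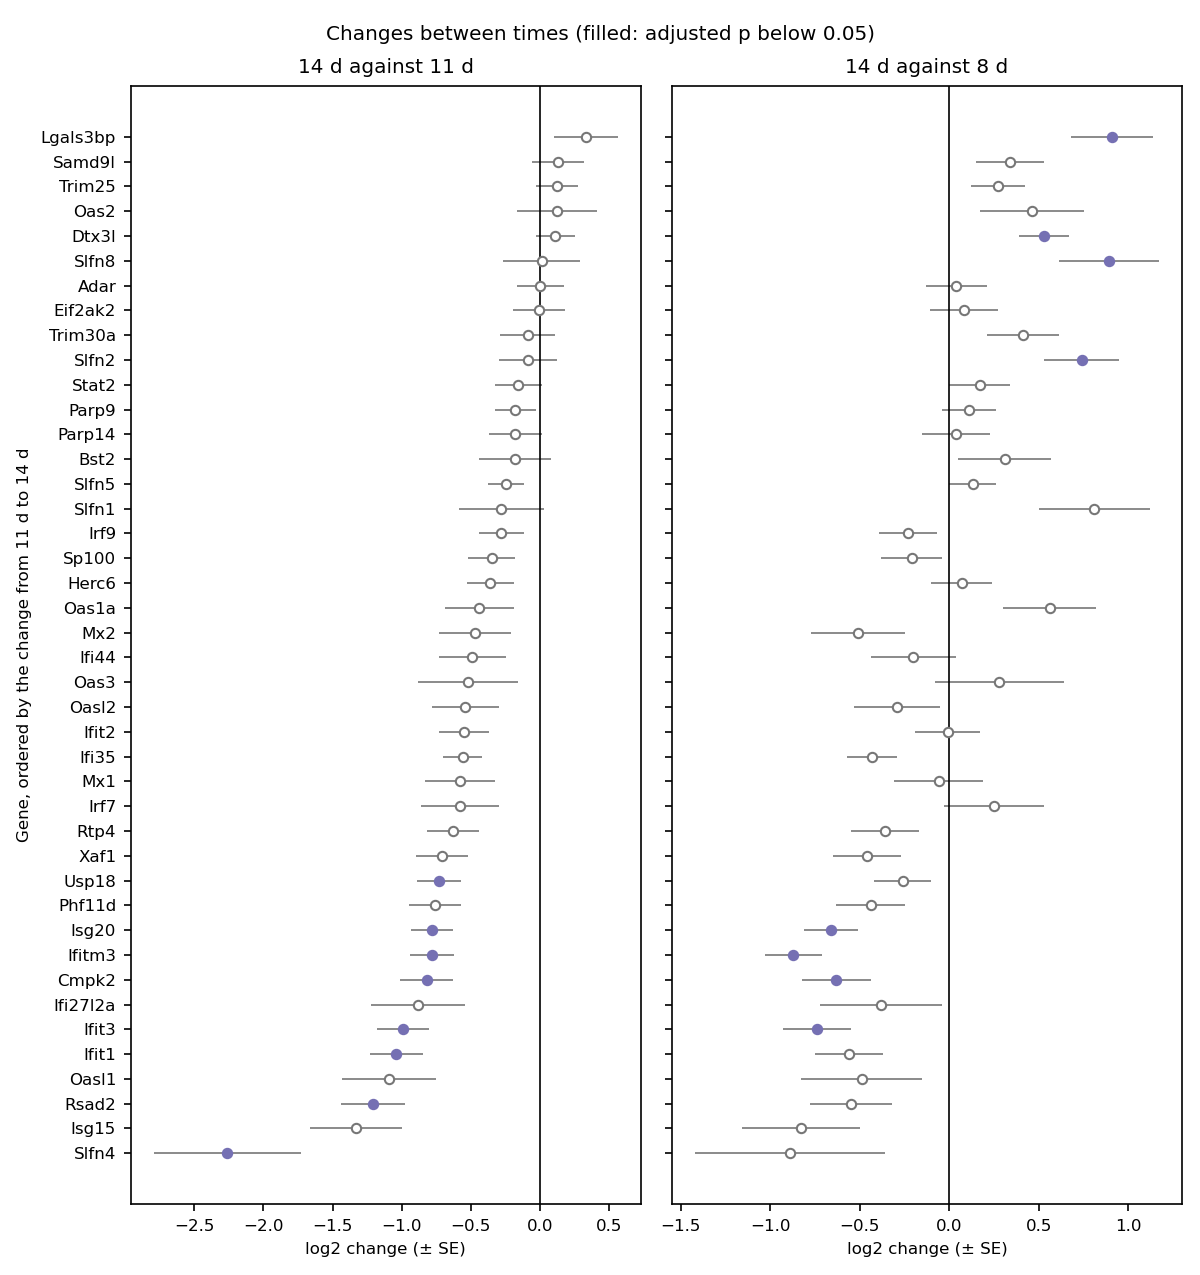
log2 differences with SE for 14 d against 11 d and 14 d against 8 d, members ordered by the first, filled where the test passed. The 8 filled points of the first panel lie left of zero, and in the second 4 lie on each side.

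In every group 1 library was the highest in most members at once. Replicate 1 of 11 d was the highest of its group in 42 of 42 members, where 38.1% of all genes tested were highest there, at a median of 1.45 times the mean of the other libraries of its group. Unirradiated replicate 3 was the highest of its group in 32 members, at a median ratio of 1.41, where 34.5% of all genes were. In the other groups 8 d replicate 1 was the highest in 24 members, at a median ratio of 1.13 (38.5% of all genes), and 14 d replicate 3 in 26, at 1.14 (37.8%). Leaving out 11 d replicate 1 and unirradiated replicate 3 together gave 37 calls at 8 d, 34 at 11 d and 37 at 14 d, with median log2 changes of 1.34, 1.47 and 1.13, and 6 falls from 11 d to 14 d with a median of -0.21.

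Pan-leukocyte and T cell markers rose at each time, as most members did, while in other leukocyte lists not all markers rose at every time. Among the leukocyte lists, falls against unirradiated lung were called only for plasmacytoid dendritic cell and alveolar macrophage markers. All 7 pan-leukocyte markers rose at each time, and their sum lay between 390 and 462 CPM in the unirradiated group, then between 850 and 1070 (8 d), 1160 and 1660 (11 d) and 1390 and 1810 (14 d). Of 12 monocyte and macrophage markers 7 rose at 8 d, 11 at 11 d and 12 at 14 d, and their sum lay between 7850 and 8660 CPM in the unirradiated group, then between 6570 and 7650 (8 d), 9780 and 15000 (11 d) and 18800 and 24100 (14 d). At 8 d the monocyte and macrophage sum lay below the unirradiated range. There 11 of the 12 markers had a positive log2 difference and 1 a negative one (-0.32), with a median of 0.93, so the sum does not follow most markers. In both lists 11 d replicate 1 was the highest of its group, at 1660 and 15000 CPM. The members had their median change lower at 14 d than at 11 d. Monocyte and macrophage sums at 14 d lay above those at 11 d, while pan-leukocyte sums of these times overlapped. From 11 d to 14 d median log2 differences were 0.57 for monocyte and macrophage, 0.24 for pan-leukocyte and 0.04 for T cell markers. They were -0.63 for NK cell, -0.43 for B cell, -0.32 for neutrophil, -0.12 for alveolar macrophage and -0.01 for plasmacytoid dendritic cell markers. The 8 T cell markers tested all rose at every time, from a sum of 36.6 to 48.4 CPM to 119 to 151, 178 to 223 and 146 to 253 CPM. NK cell markers summed to between 27.9 and 30.8 CPM in the unirradiated group, then between 102 and 154 (8 d), 93.8 and 112 (11 d) and 44.4 and 90 (14 d), with 8, 8 and 6 of 8 called higher.

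Plasmacytoid dendritic cells, a main source of interferon-alpha, were followed by 9 markers, of which 7, 7 and 6 rose and 0, 1 and 2 fell. Their median log2 change was 2.47 at 8 d, 2.13 at 11 d and 1.58 at 14 d. Their sum, in which Tcf4 weighs most, was 187 to 213 CPM without irradiation and 178 to 237 CPM after it, so it does not follow most markers. Neutrophil markers summed to 41.7 to 106 CPM without irradiation and 118 to 258, 135 to 204 and 121 to 134 CPM after it, with 4, 6 and 3 of 9 called higher. Alveolar macrophage markers summed to between 1180 and 1400 CPM in the unirradiated group, then between 643 and 769, 940 and 1210, and 943 and 998 CPM, and of 9 markers 7, 6 and 6 fell. Of 7 B cell markers 6 rose at 8 d, 1 at 11 d and none at 14 d. Endothelial markers, all of them lower at 14 d, summed to 5170 to 5700, 3090 to 3210, 2000 to 2770 and 1250 to 1530 CPM. No marker of these lists was at 0 counts in any group. The part of these cell types in the changes of the members was not tested.

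**Figure D5:**
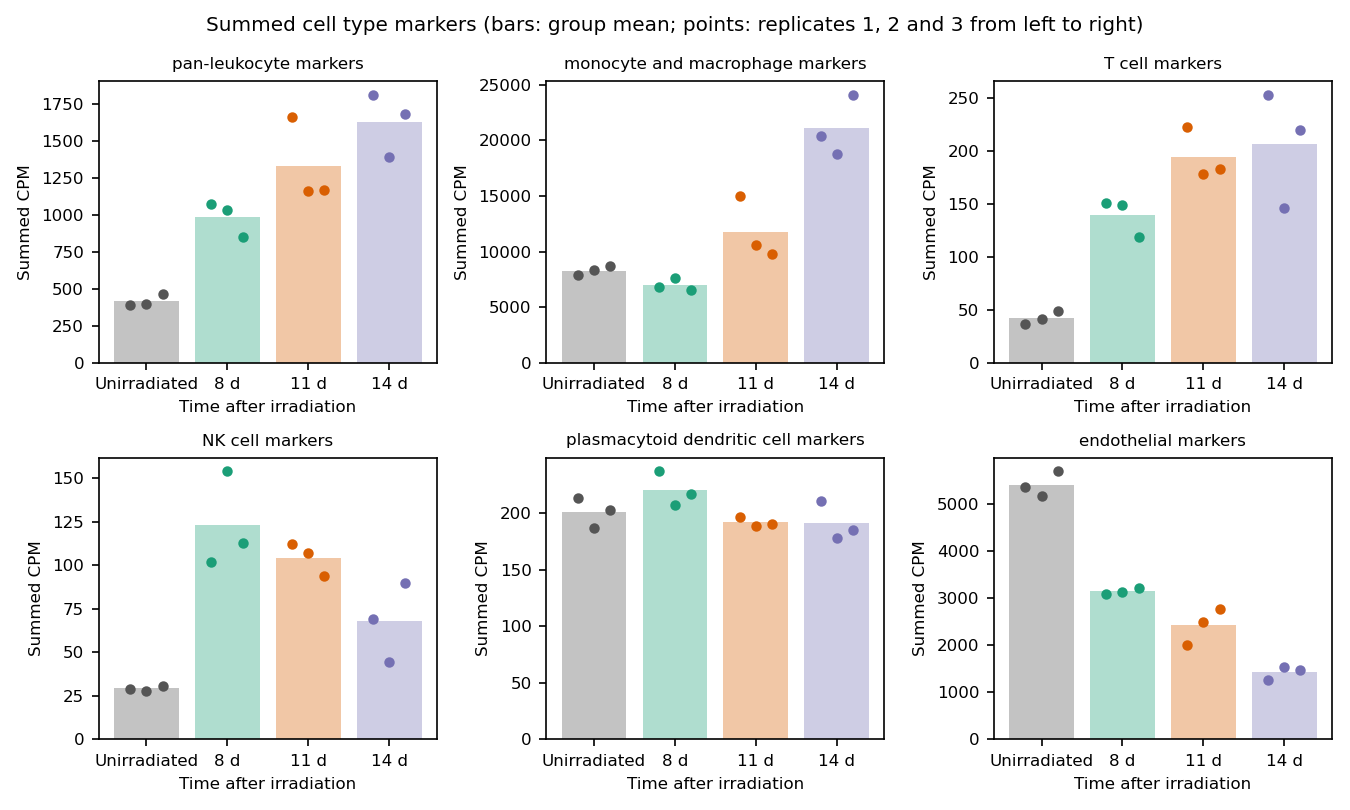
Summed CPM of 6 marker lists in each library (points) with the group mean (bars). Pan-leukocyte and T cell sums are higher after irradiation, and the monocyte sum is below the unirradiated range at 8 d and above it later. NK sums are highest at 8 d, and endothelial sums are lower at each later time. Plasmacytoid dendritic cell sums, in which Tcf4 weighs most, overlap between unirradiated and irradiated libraries, although most of these markers rose.

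Transcripts of the type I interferons themselves were at or near the limit of detection. The 13 interferon-alpha genes, Ifnab and Ifnb1 together had 0 counts in unirradiated lung, 4 at 8 d, 3 at 11 d and 5 at 14 d, and 10 of these 15 genes had none in any library. A count of 0 over the unirradiated group allows up to 3 counts, or 0.0368 CPM of the summed library, for counting error only. Ifnb1, the interferon that many cell types can make, had 0, 3, 2 and 2 counts. Ifnk had 123, 73, 95 and 127 counts and did not pass the test at any time, Ifnz had 5, 18, 19 and 9 counts and was below the filter, and Ifne had none. At this depth a change of interferon-alpha or interferon-beta RNA was not detectable.

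Interferon-gamma RNA, by contrast, could be tested. Ifng, made by T and NK cells, stood at 0.113, 0.0738 and 0 CPM without irradiation, 0.89, 1.49 and 0.959 at 8 d, 0.93, 0.562 and 0.674 at 11 d and 0.81, 0.377 and 1 at 14 d. All irradiated libraries lay above the unirradiated ones, and it rose by 4.06 (SE 0.64, adjusted p = 0.000422), 3.45 (SE 0.66, adjusted p = 0.00104) and 3.45 (SE 0.66, adjusted p = 0.000774), from 5 counts in the whole unirradiated group. Of the interferon-lambda genes Ifnl2 had no count and Ifnl3 2 counts, both at 14 d.

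Among 6 receptor genes none rose and 1 fell at 8 d, and 2 rose and 1 fell at 11 d and at 14 d. Ifnar1, a chain of the type I receptor, had 68.6 ± 4.89 CPM without irradiation and 87.1 ± 3.16, 99.9 ± 14.7 and 92.3 ± 5.43 CPM after it (SD, n = 3), with log2 differences of 0.34 (SE 0.12, adjusted p = 0.0556), 0.54 (SE 0.12, adjusted p = 0.00318) and 0.43 (SE 0.12, adjusted p = 0.0121). Ifnar2, the other chain, did not pass, with 0.11 at 8 d, 0.31 at 11 d and 0.20 at 14 d. Ifngr2, of the interferon-gamma receptor, had 0.44 at 8 d, 0.83 at 11 d and 0.99 at 14 d, passing at 11 d and 14 d, and Ifngr1 and Il10rb did not pass. Ifnlr1, the epithelial receptor chain for interferon-lambda, dropped by 0.67, 0.70 and 0.63 (adjusted p = 0.0145, 0.00774 and 0.0118).

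Of 14 signal transducers and brakes 8 rose at 8 d, 10 at 11 d and 9 at 14 d. Those with the lowest joint p were Irf8, Irf5, Socs3 and Ptpn6. Irf8, a factor of myeloid and plasmacytoid dendritic cells, changed by 2.03 at 8 d, 2.37 at 11 d and 2.97 at 14 d, and Irf5, which acts downstream of Toll-like receptors, by 1.91 at 8 d, 2.49 at 11 d and 2.64 at 14 d. Socs3, a feedback inhibitor of cytokine receptors, changed by 1.82 at 8 d, 2.20 at 11 d and 1.54 at 14 d, and Ptpn6, a phosphatase of blood cells, by 0.96 at 8 d, 1.60 at 11 d and 1.68 at 14 d. One transducer fell at 8 d (Irf2, log2 -0.37) and another at 14 d (Irf3, log2 -0.41), both singled out after their values were seen.

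Most of the other interferon-stimulated genes outside the 42 rose too. Of 35 tested 26 rose at 8 d, 28 at 11 d and 24 at 14 d, and 0, 0 and 2 fell. Cxcl10, the chemokine for CXCR3-bearing T cells, changed by 4.96 at 8 d, 5.36 at 11 d and 4.24 at 14 d on the log2 scale, Zbp1 by 3.03 at 8 d, 3.64 at 11 d and 2.98 at 14 d, Mnda by 3.08 at 8 d, 4.03 at 11 d and 3.69 at 14 d and Ifi205 by 3.05 at 8 d, 3.90 at 11 d and 3.31 at 14 d. Of 12 genes led by interferon-gamma 10, 11 and 9 rose. Cxcl9 changed by 4.16 at 8 d, 5.20 at 11 d and 5.61 at 14 d, and the MHC class II gene H2-Ab1 by 1.51 at 8 d, 2.06 at 11 d and 2.64 at 14 d. Cd74, the chaperone of MHC class II, changed by 1.03 at 8 d and 2.22 at 14 d. The immunity-related GTPase Irgm1 changed by 1.32 at 8 d, 1.86 at 11 d and 1.72 at 14 d. These lists were compared with the members by counts alone, and no difference between lists was tested.

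Levels between members can be compared per length. In CPM per kb of exon Ifitm3 ranked first of 42 in all 4 groups, with 224 ± 28.2, 341 ± 63.5, 320 ± 21.3 and 186 ± 33.4 CPM per kb (SD, n = 3). Ifi27l2a had 45.3 ± 22.4 CPM per kb without irradiation and 273 ± 108 at 11 d, and Ifit3 91.1 ± 15.3 and 229 ± 57.4. Slfn2 had 28 ± 0.708 and 149 ± 38.8 CPM per kb, and Slfn5 40.6 ± 4.46 and 38 ± 5.05, so that their order without irradiation was the opposite of that at 11 d. Oas3 had 0.225 ± 0.115 and 3.25 ± 1.28 CPM per kb and was among the lowest of the 42 in every group, although its log2 change was among the largest. At 11 d the SD of Ifi27l2a covered the means of Ifitm3 and Ifit3, so its place between them does not go beyond the spread.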

How the data were processed

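The files held the authors' deposited counts per gene symbol for 12 libraries of mouse lung (23282 lines each). Reads had been aligned to mm10 by TopHat, per the submitters' processing notes. Which version, counter, annotation and strand setting were used is not given in the sources used here. Libraries were made from 1.3 µg of Trizol-extracted total RNA with a NEBNext Ultra II Directional kit, per the labels' protocols. Lines of 35 repeated symbols were summed. The fit was edgeR 4.0.16 (R 4.3.3, glmQLFit and glmQLFTest) over all 12 libraries, with TMM scaling and the default expression filter, and calls were made at a Benjamini-Hochberg adjusted p below 0.05 over 16484 genes. SE is the size of the log2 change over the root of F. Coordinates are from GENCODE M21, which held all 42 members, and promoter windows from RefSeq. The figure of all members adds a pseudocount of 1 CPM.

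The members and gene lists were chosen with earlier results of these data known. By the naming rule every library's value is given for the Ifit, Oas, Mx, Slfn and Parp genes, Irf7, Irf9, Stat2 and Usp18. It is also given for the 4 other members of lowest joint p and those that fell or did not pass against unirradiated lung or passed between times. Pathway lists give all ligands and receptors and up to 4 genes of lowest joint p. Genes of the pathway lists beyond these (Ifit3b and the Slfn and PARP paralogues) were added for the family comparison after their values were seen. Alternatives were other scalings, filters and tests (DESeq2 1.42.0, limma-voom 3.58.1), a replicate block and each library left out. Deviations of same-numbered unirradiated and 8 d libraries correlated at 0.148 to 0.192 and those of other numbers at -0.106 to -0.0359, so these groups were also compared with the number as a block. These values do not show that the samples were paired, since deviations from a mean of 3 libraries constrain one another, and the labels name no pairs. A self-test used simulated counts modelled on 8 d and unirradiated lung (16066 genes), with 67, 67 and 66 genes changed 1.5-, 2- and 4-fold. It recovered 5.97% of genes changed 1.5-fold, 58.2% changed 2-fold and 93.9% changed 4-fold, with 7 of 112 calls false. Only those groups were fitted and few genes were changed, so these shares do not measure the recovery of the fit over all 12 libraries.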

Additional observations from a re-analysis of the deposited data

Results flagged for a closer look

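In 16 cases the change of a member against unirradiated lung differed between 2 times after irradiation, by edgeR's test of the difference itself (adjusted p below 0.05). Between 11 d and 14 d the log2 difference was -1.04 for Ifit1, -0.99 for Ifit3, -2.26 for Slfn4, -0.73 for Usp18, -1.21 for Rsad2, -0.82 for Cmpk2, -0.78 for Isg20 and -0.78 for Ifitm3. Between 8 d and 14 d it was -0.74 for Ifit3, -0.63 for Cmpk2, -0.66 for Isg20 and -0.87 for Ifitm3. In the opposite direction it was 0.74 for Slfn2, 0.89 for Slfn8, 0.53 for Dtx3l and 0.91 for Lgals3bp. For the difference between 8 d and 14 d the share of members called in each direction, 9.52%, was near that of all genes (8.1% higher and 7.29% lower). Ifit3, Cmpk2, Isg20 and Ifitm3 were lower at 14 d than at both earlier times. Groups of 3 libraries were not tested for single outlying libraries.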

How the results depend on the processing

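Counts of members called against unirradiated lung moved by less than 1.5 times under every alternative. With a library left out they lay between 32 and 39 at 8 d, between 37 and 40 at 11 d and between 30 and 36 at 14 d. From 8 d to 11 d the count of 0 became 2 without a filter and 4 with DESeq2, 3 with a replicate block in a fit restricted to those groups, and 0 to 5 with a library left out. From 11 d to 14 d the 8 calls became 13 with DESeq2 and 0 to 11 with a library left out, and from 8 d to 14 d the 8 calls became 5 with that block, 2 to 9 with a library left out and 12 without unirradiated replicate 3 and 11 d replicate 1. The cause was not tested. Signs of single members were followed for the comparisons with unirradiated lung and for calls between times. They turned for Trim25 at 8 d (0.00 with library size alone, 0.01 without unirradiated replicate 1, 0.08 without 8 d replicate 2, leave-one-out range -0.17 to 0.08), Trim25 at 11 d (-0.03 without 11 d replicate 1, -0.08 also without unirradiated replicate 3, up to 0.19) and Ifi35 at 14 d (-0.11 without 14 d replicate 3, up to 0.16). The members' median from 8 d to 14 d, -0.03, became 0.04 without 8 d replicate 1 and 0.02 without 8 d replicate 3. Scaling by library size alone took the median of all genes from 8 d to 11 d from -0.01 to -0.10.

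Only between unirradiated and 8 d libraries did all pairs of equal number correlate above all pairs of different number. That does not show pairing, since deviations from a mean of 3 libraries constrain one another, and a number may be only a name. Deviations of samples with the same number correlated at -0.479 to 0.401 over all 18 pairs, and those with different numbers at -0.566 to 0.623. With the replicate block 38, 40 and 34 members were called against unirradiated lung and 0, 8 and 8 between times. That block ended the calls of Slfn4 and Slfn5 at 14 d (adjusted p = 0.0602 and 0.06) and that of Slfn4 from 11 d to 14 d (0.071). The block within only the fitted pair of groups and the joint omission of unirradiated replicate 3 and 11 d replicate 1 were chosen after seeing the data. Depth limits the interferon genes, most of which had no count. The self-test, which fitted unirradiated and 8 d libraries alone, recovered few changes of 1.5-fold. The 8 d changes of the Parp family were close to that size and were called in the fit of all 12 libraries.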
